A study of Mus musculus with 86 samples.

Results

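The cells described are 35 single cells of the embryonic mouse kidney in which Six2, a marker of nephron progenitors, was detected, divided by whether Cited1 was detected as well. They are 35 of the 86 cells of the study, and they are the cells for which the authors deposited a second table on induced and uninduced progenitors. The sides were chosen by measured values: 22 cells listed Cited1 at an RPKM (a read count corrected for how long the gene is and how deeply the cell was sequenced) of at least 1 and are called Cited1-detected, and 13 listed it below 1 and are called Cited1-undetected. All cells were wild type, on a mixed background, from the metanephros at 12.5 days post coitum (Theiler stage 20), with male and female embryos pooled. Kidneys were dissociated with trypsin, and single cells were captured, amplified and sequenced in one Fluidigm C1 experiment. Every cell came from 1 pool, so the study holds 1 sample and no replicate. Differences are described without a test, and SD below is the spread over cells.

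Nephron progenitors form a cap of mesenchyme around the tips of the ureteric bud. Six2, a homeobox transcription factor, keeps them in an undifferentiated, self-renewing state, and Cited1, a transcriptional co-regulator without a DNA-binding domain, marks the progenitors that have not yet been induced. BMP7 signalling moves cells out of the Cited1-positive state towards a state in which they can respond to the Wnt signal of the bud. Induced cells then turn on Wnt4, Pax8 and Lhx1 and form the renal vesicle, the first epithelium of the nephron.

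The threshold lay in a sparse range of Cited1 values. The cells just inside it listed 1.77 and 1.84 RPKM, and those just outside listed 0.770 and 0.751 RPKM. Of the Cited1-detected cells, 18 had at least 10 RPKM and 4 lay between 1 and 10 RPKM. Six2 was listed in every one of the 35 cells, at 13.4 to 82.6 RPKM (median 46.1) on the Cited1-detected side and at 7.45 to 88.9 RPKM (median 38.6) on the other. The second table names its classes by Six2 and Cited1, so neither gene is a result here.

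The progenitor label was checked against marker lists. Of 21 nephron progenitor markers in the table, Six2 and Cited1 left out, Cited1-detected cells had 9 to 18 at 1 RPKM or more (median 15.5). Cited1-undetected cells had 8 to 17 (median 13). Most cells of both sides thus had the markers of the label, with exceptions that bear on the results. Cell 47 and cell 57, both Cited1-undetected, detected 12 and 9 of 13 ureteric bud markers, while no other cell detected more than 2. Mal2, an epithelial membrane protein, stood at 1521 and 1734 RPKM in these cells, and Gata3, a transcription factor of the ureteric bud, at 144 and 225 RPKM. The summed level of the bud list ranged from 0 to 33.1 RPKM over the Cited1-detected side and from 0 to 3397 RPKM over the Cited1-undetected side. Whether these chambers held more than 1 cell was not tested, and no doublet caller was run. The values without them are given beside each result they touch.

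Stroma markers were mixed with progenitor markers on both sides. Of 18 such markers, 3 to 14 were detected in Cited1-detected cells (median 6) and 3 to 13 in the others (median 5). Their summed level ran from 87.2 to 906 RPKM and from 41.8 to 848 RPKM. In 7 cells a larger share of the stroma or bud list than of the progenitor list was detected. Of these, 3 were Cited1-detected and 4 were not. For this share the progenitor list held 23 markers, Six2 and Cited1 included. The only endothelial marker in the table was Emcn and the only blood marker Cd68. Numbers of detected genes were similar, with a median of 6193 (4739 to 7100) on the Cited1-detected side and 6185 (4342 to 7076) on the other. Reads per cell are unknown.

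**Figure D1:**
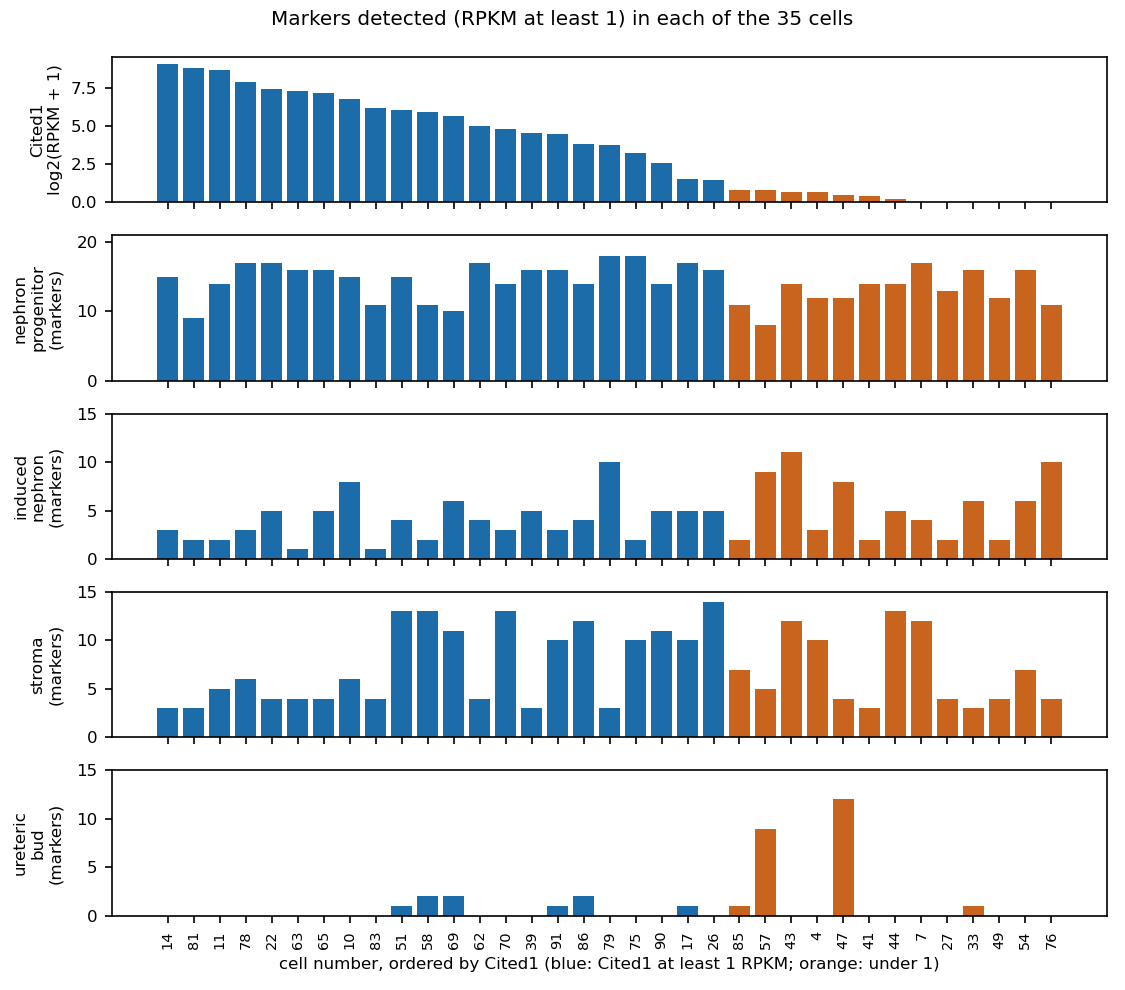
Cited1 as log2(RPKM + 1) in the top panel and, below it, the number of markers of 4 lists at 1 RPKM or more, for each of the 35 cells in order of Cited1 (blue, Cited1-detected; orange, Cited1-undetected). Progenitor markers fill both sides, stroma markers vary on both, and ureteric bud markers are many in cells 47 and 57 alone.

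For each gene the sides were compared as the log2 ratio of (mean RPKM + 1), Cited1-detected over Cited1-undetected, and as the difference of mean log2(RPKM + 1). A gene was counted as higher or lower when both measures reached 1 in size, among the 7368 genes whose side means averaged at least 5 RPKM. By this rule 311 genes (4.22%) were higher in Cited1-detected cells and 283 (3.84%) were lower. The median ratio over all these genes was 0.00, and 3692 of them lay above 0. Without the 2 bud-marker cells, 356 of 7323 genes were higher (4.86%) and 302 were lower (4.12%). Of the first counts, 256 higher and 208 lower genes were counted again. Since single cells list many genes at 0, a gene found in a few cells of 1 side can pass such a rule, and the ratio alone would have counted 637 and 606 genes. These shares are the background for each list below.

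Genes of the nephron progenitor state stood mostly higher in Cited1-detected cells. Leaving out Six2 and Cited1, 16 list members passed the floor of 5 RPKM: 14 had a ratio above 0, 2 were counted as higher, 1 as lower, and the median ratio was 0.68 (0.51 without the bud-marker cells). Of the 2 members counted as higher, Osr1 had the larger ratio. Osr1 (chr12:9581248-9588306, mm9) is a zinc-finger transcription factor of the intermediate mesoderm and of the early cap. It was listed at 0 to 174 RPKM in Cited1-detected cells, with a median of 25.9, and was detected in 20 of 22 (90.9%, Clopper-Pearson interval 70.8 to 98.9%, counting error only). In Cited1-undetected cells it ran from 0 to 102 RPKM with a median of 0.327 and was detected in 5 of 13 (38.5%, 13.9 to 68.4%). Cells 27, 41 and 54 held nearly all of it on that side, at 102, 51.1 and 21.5 RPKM, so the sides overlapped. The means were 41.0 ± 43.1 and 13.8 ± 30.3 RPKM (SD, n = 22 and 13 cells), a log2 ratio of 1.51, and 1.29 without the bud-marker cells. Without cell 27 the ratio was 2.50.

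Phf19, a Polycomb-associated protein that reads a histone mark, was the other member counted as higher. Its mean was 20.1 ± 24.8 RPKM against 7.35 ± 19.8 RPKM, a log2 ratio of 1.34, and it was detected in 12 of 22 and 4 of 13 cells. A single Cited1-undetected cell listed it at 71.9 RPKM, and without that cell the ratio was 2.83. Tmem100, a small membrane protein linked to BMP signalling in other tissues, went the opposite way. It was listed at 0 to 59.4 RPKM in Cited1-detected cells (median 0, detected in 7) and at 0 to 125 RPKM in the others (median 6.06, detected in 10), a log2 ratio of -1.55. It was thus the counted progenitor-list gene that stood higher where Cited1 was not detected.

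Other regulators of the cap, Sall1, Wt1 and Eya1, were counted in neither direction. Sall1, a zinc-finger repressor, averaged 65.8 ± 43.4 and 72.6 ± 55.7 RPKM, a log2 ratio of -0.14. Wt1, needed for the mesenchyme to survive and later for podocytes, averaged 72.4 ± 63.6 and 59.1 ± 34.8 RPKM, a log2 ratio of 0.29. Eya1, the phosphatase partner of Six2, averaged 59.2 ± 46.8 and 36.3 ± 32.5 RPKM, a log2 ratio of 0.69. Its difference of mean log2 was 1.03, so it fell short by the ratio alone. Both Sall1 and Six2 were found in all 35 cells, and Wt1 and Eya1 were each missed in at most 1 cell of a side. Pax2 averaged 0.747 and 1.57 RPKM and lay under the floor.

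Several other cap genes had higher means with Cited1 but did not meet both criteria. Crym, a thyroid hormone-binding protein and abundant cap marker, averaged 630 ± 418 against 337 ± 260 RPKM (log2 ratio 0.90), and its ranges overlapped widely, 41.1 to 1461 and 21.9 to 889 RPKM. Gdnf, the growth factor that draws out the ureteric bud through Ret, averaged 21.6 ± 32.4 against 11.6 ± 18.6 RPKM (0.84). It was detected in 12 of 22 and 5 of 13 cells. Cldn9, a claudin, had medians of 80.9 and 20.0 RPKM and was detected in 18 and 7 cells (0.79). Itga8, the integrin subunit through which the cap meets the bud, had a log2 ratio of 1.04 and a difference of mean log2 of 0.99, just short of the rule. Meox1, Spock2 and Robo2 had log2 ratios of 0.42, 0.35 and 0.57. The difference of mean log2 passed 1 for Crym (1.03), Cldn9 (1.81) and Spock2 (1.20), which fell short by the ratio alone. It stayed below 1 for Gdnf (0.80), Meox1 (0.91) and Robo2 (0.38). Crym, Cldn9, Meox1, Spock2 and Robo2 are named here after their values were seen.

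**Figure D2:**
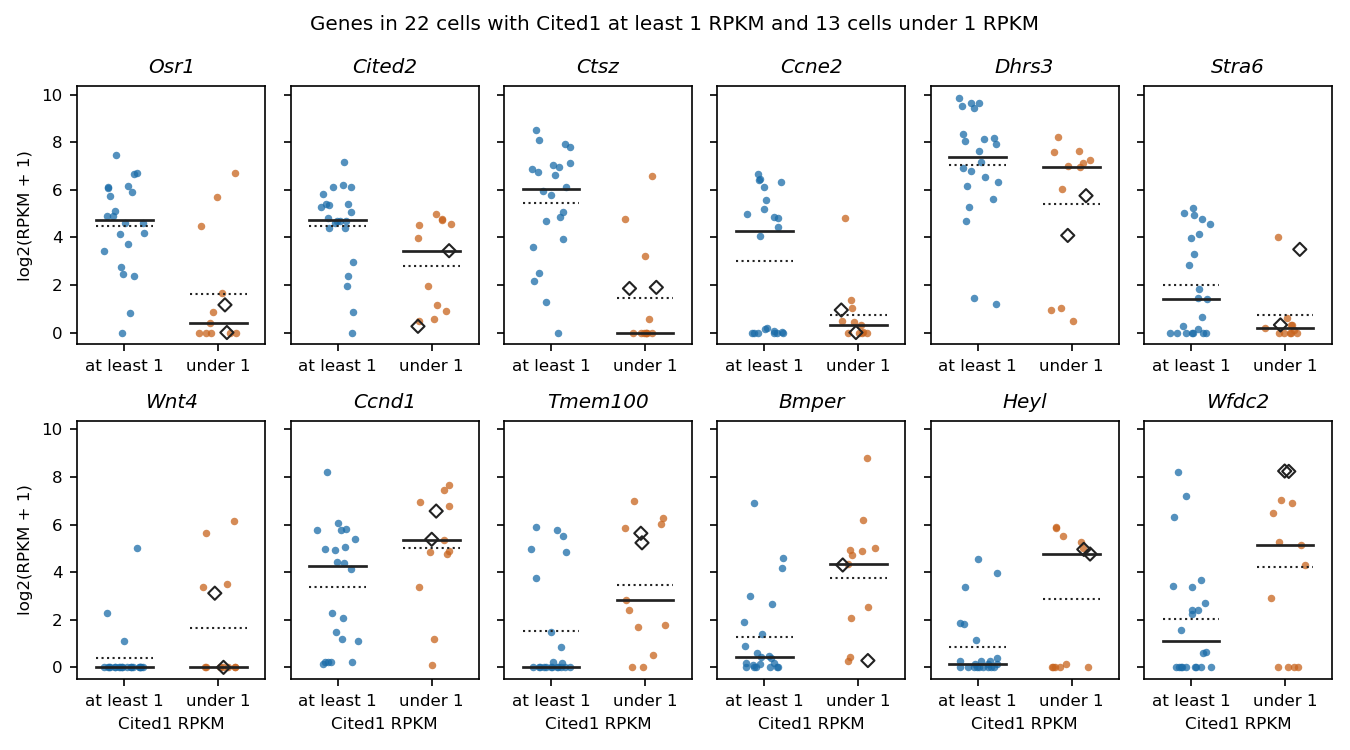
log2(RPKM + 1) of 12 genes in each cell, Cited1 at least 1 RPKM (blue, 22 cells) and under 1 RPKM (orange, 13 cells), with the median (solid line) and mean (dotted line) and open diamonds for the 2 bud-marker cells. Osr1 and Ctsz have most Cited1-detected cells well above 0 and most others near 0, whereas for Wnt4 and Heyl the difference lies in 5 and 7 Cited1-undetected cells.

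Cited2, a relative of Cited1 that binds the same CBP and p300 co-activators, was higher in the cells that had Cited1. It was listed at 0 to 142 RPKM on the Cited1-detected side (median 25.9, detected in 20 of 22) and at 0.198 to 30.3 RPKM on the other (median 9.85, detected in 9 of 13). The means were 35.3 ± 32.1 and 12.0 ± 11.7 RPKM, a log2 ratio of 1.48, and no Cited1-undetected cell passed 30.3 RPKM. Of the 3 members of the Cited family and partner list that passed the floor, Cited2 alone was counted. Crebbp, which encodes CBP, averaged 20.3 and 24.0 RPKM (log2 ratio -0.23). Smad4, the shared partner of the receptor-regulated Smad proteins, averaged 19.8 and 10.3 RPKM. Its log2 ratio of 0.89 became 1.31, and was counted, without the bud-marker cells.

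Genes of nephron induction stood lower in Cited1-detected cells, and this rested on few cells. All 7 list members above the floor had ratios below 0, with a median of -0.79, and 3 were counted as lower: Wnt4, Ccnd1 and Wfdc2. The median was -0.37 over 6 members without the bud-marker cells. It was 0.12 without the 7 cells that held more stroma or bud than progenitor markers, so its sign changed with those cells. The progenitor share that chose them counted Cited1, which defines the sides. That choice was therefore not independent of the split, and no conclusion is drawn from the change of sign. Wnt4 (chr4:136833550-136852694, mm9), the Wnt ligand that induced cells need to become epithelial, was listed at 1 RPKM or more in 3 of 22 Cited1-detected cells (13.6%, 2.91 to 34.9%) and 5 of 13 Cited1-undetected cells (38.5%, 13.9 to 68.4%), intervals that overlap. Its highest values were 69.4, 48.6 and 10.3 RPKM in cells 43, 54 and 76, all without Cited1, and 31.2 RPKM in cell 79, which had Cited1 at 12.5 RPKM. The means were 1.65 ± 6.66 and 11.2 ± 22.0 RPKM, a log2 ratio of -2.20, which was -1.47 without cell 43 and -3.30 without cell 79.

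Ccnd1, the D-type cyclin of early G1, had a median of 18.4 RPKM (0.0973 to 292) in Cited1-detected cells and 40.2 RPKM (0.0702 to 203) in the others. It was detected in 17 of 22 and 12 of 13 cells, and its log2 ratio was -1.01 with and without the bud-marker cells. With single cells left out the ratio ran from -1.66 to -0.75, so it lies at the edge of the rule. Wfdc2, a secreted epithelial protein, averaged 25.8 ± 68.7 and 80.0 ± 109 RPKM (log2 ratio -1.59). The 2 bud-marker cells had its highest values on the Cited1-undetected side, 304 and 301 RPKM, and without them the ratio was -0.60 and was not counted.

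The other genes of induction were not counted or were seldom detected. Pax8, a paired-box factor that precedes the vesicle, averaged 22.5 ± 44.4 and 26.8 ± 46.9 RPKM (log2 ratio -0.25). It was at or above 100 RPKM in cells 10, 69 and 79 of the Cited1-detected side and in cells 43 and 76 of the other. Lhx1, a LIM-homeobox factor of the vesicle, was detected in 2 cells of each side and did not pass 5.27 RPKM. Wnt4 or Lhx1 was detected in 9 of the 35 cells, of which 4 had Cited1. Six2 in these cells was 7.45 to 61.7 RPKM. Cell 10 combined Cited1 at 108 RPKM with Pax8 at 155 RPKM and Wnt4 at 3.86 RPKM.

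In the BMP and TGF-beta list 11 of 16 members lay below 0, with a median of -0.52 (-0.60 without the bud-marker cells), and 1 was counted as lower. That gene was Bmper (chr9:23027520-23289646, mm9), a secreted modulator that binds BMP ligands. It was listed at 0 to 120 RPKM in Cited1-detected cells, with a median of 0.333, and was detected in 7 of 22 (31.8%, 13.9 to 54.9%). In Cited1-undetected cells it ran from 0.212 to 439 RPKM with a median of 19.3 and was detected in 10 of 13 (76.9%, lower bound 46.2%). The means were 8.15 ± 25.6 and 51.9 ± 118 RPKM, a log2 ratio of -2.53. Cell 41 alone listed 439 RPKM, and leaving out 1 cell at a time moved the ratio between -3.78 and -1.17. The medians show the same direction as the means.

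Bmp7, the cap's own BMP ligand, had the opposite sign. It averaged 15.1 ± 27.1 and 8.38 ± 13.9 RPKM and was detected in 15 of 22 and 6 of 13 cells (log2 ratio 0.78, not counted). Id2 and Id3, inhibitors of basic helix-loop-helix factors that BMP signalling turns on in many cells, were abundant everywhere. Id2 averaged 331 ± 232 and 635 ± 433 RPKM, a log2 ratio of -0.94 that became -1.05, and was counted, without the bud-marker cells. Id3 averaged 589 ± 341 and 815 ± 414 RPKM (-0.47). Both Id genes were named after their values were seen.

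Of the Notch genes, 5 of 7 lay below 0 (median -0.57) and Heyl was counted as lower. Heyl (chr4:122910799-122927113, mm9) encodes a repressor of the Hey family, which Notch signalling induces. It was detected in 6 of 22 Cited1-detected cells, with a highest value of 22.8 RPKM and a median of 0.109 RPKM. In Cited1-undetected cells it was split: 7 cells lay between 26.2 and 59.3 RPKM and the other 6 at or below 0.0937 RPKM. All 7 high cells thus stood above every Cited1-detected cell. The 2 bud-marker cells were among them, at 30.1 and 26.2 RPKM, and the log2 ratio was -2.72 with them and -2.65 without. Hey1, a relative named after its values were seen, averaged 10.1 and 17.7 RPKM (-0.75). Jag1, a Notch ligand of the forming vesicle, had a ratio of -0.57, and 0.10 without the bud-marker cells.

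In the Wnt list, Wnt4 included, 11 of 19 genes lay above 0, with a median ratio of 0.07, and Wnt4 alone was counted. The median difference of mean log2 over the same genes was -0.10, of the opposite sign. The FGF and MAPK feedback list had a median of 0.08 over 12 members and no counted gene. Its highest ratio above the floor was that of Etv5, an ETS factor downstream of FGF and Ret signalling, at 1.03, which became 1.99 and counted without the bud-marker cells. In the retinoic acid list 2 of 10 genes were counted as higher, and the median was -0.02 by the ratio and 0.21 by the difference of mean log2. Dhrs3, a retinaldehyde reductase, averaged 286 ± 300 and 105 ± 92.3 RPKM and was detected in all 22 and in 11 of 13 cells (log2 ratio 1.44). Its medians were 169 and 123 RPKM, closer than the means. Stra6, the membrane receptor for retinol-binding protein, averaged 9.04 ± 12.3 and 2.06 ± 4.80 RPKM and was detected in 12 of 22 and 2 of 13 cells (1.71).

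Genes of DNA replication stood slightly higher with Cited1. Of 19 S phase genes, 17 had ratios above 0, with a median of 0.34 (0.37 without the bud-marker cells), and 3 were counted as higher. The median difference of mean log2 was 0.64. Ccne2, an E-type cyclin of the entry into S phase, was bimodal in Cited1-detected cells: 12 of 22 detected it and its values reached 99.1 RPKM. Among Cited1-undetected cells 3 of 13 did, and cell 76 alone, at 27.0 RPKM, was above 1.61 RPKM. The means were 28.2 ± 33.9 and 2.43 ± 7.40 RPKM, a log2 ratio of 3.09 (4.40 without cell 76). Ccne1, its relative, averaged 32.9 ± 72.3 and 3.01 ± 4.79 RPKM, with 13 of 22 and 5 of 13 cells and a ratio of 3.08. Its medians were 1.93 and 0.424 RPKM, so the mean difference came from a minority of cells. Mcm2, a subunit of the replicative helicase, had medians of 48.7 and 30.8 RPKM and a ratio of 1.08, which was as low as 0.89 with 1 cell left out. Its sister subunits Mcm6 and Mcm7 and the replication-coupled methylation factor Uhrf1 had ratios of 0.95, 0.57 and 0.60 and were not counted; these 3 were named after their values were seen. Gins2, a subunit of the GINS complex of the replication fork, lay the other way, at 61.2 ± 72.4 and 90.7 ± 82.6 RPKM (-0.56). Of 19 G2/M genes 14 lay below 0, with a median of -0.16, and none was counted. The median difference of mean log2 was 0.22, so the direction of the mitosis genes turned with the measure. Ube2c, a ubiquitin-conjugating enzyme of the anaphase-promoting complex, averaged 286 ± 331 and 488 ± 457 RPKM (log2 ratio -0.77).

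Genes of S phase entry are textbook targets of E2F factors, so the 250 bases before each start were searched for TTTGGCGC and TTTCGCGC on both strands, with overlapping matches counted. RefSeq promoters (GRCm38.p6) were found for 16 of the 19 genes, in 19 windows. Mcm5, Mcm6 and Uhrf1 had a match, and 215 of 32851 windows of all genes did (0.654%). The latter is a share of windows, not of genes. The windows of Mcm6, with the most matches (3), Mcm5, with 2, and Ccne1, with none, are printed 5′ to 3′ with matched bases in capitals. They lie at chr1:128359706-128359955 (minus strand), chr8:75109259-75109508 (plus strand) and chr7:38107491-38107740 (minus strand).
Mcm6: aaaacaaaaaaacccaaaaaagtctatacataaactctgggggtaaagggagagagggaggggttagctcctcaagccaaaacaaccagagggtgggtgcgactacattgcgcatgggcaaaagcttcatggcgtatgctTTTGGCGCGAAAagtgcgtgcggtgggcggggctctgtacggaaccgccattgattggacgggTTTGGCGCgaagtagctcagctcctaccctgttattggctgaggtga
Mcm5: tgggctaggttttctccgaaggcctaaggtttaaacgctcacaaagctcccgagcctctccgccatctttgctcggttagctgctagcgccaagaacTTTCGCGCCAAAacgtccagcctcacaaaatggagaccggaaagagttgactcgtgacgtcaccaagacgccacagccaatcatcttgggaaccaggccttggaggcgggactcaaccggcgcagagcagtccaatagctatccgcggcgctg
Ccne1: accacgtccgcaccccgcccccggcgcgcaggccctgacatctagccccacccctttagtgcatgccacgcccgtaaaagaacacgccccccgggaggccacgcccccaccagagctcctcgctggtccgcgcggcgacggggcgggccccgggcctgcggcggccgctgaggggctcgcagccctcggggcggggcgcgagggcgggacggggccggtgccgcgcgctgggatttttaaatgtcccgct
In Mcm6 and Mcm5 a match on each strand overlaps to form 1 longer run. The counted genes Ccne1 and Mcm2 had no match in these windows, and no window was found for Ccne2, the third counted gene. A match describes letters only.

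Glycolysis genes had a median ratio of -0.03 over 14 members (0.01 by the difference of mean log2), and none was counted. Posterior Hox genes lay mostly above 0 (8 of 9, median 0.42) with none counted. Hoxa11, which with its paralogs patterns the metanephric mesenchyme, averaged 17.9 ± 20.9 and 7.01 ± 11.3 RPKM and narrowly missed the rule (log2 ratio 1.24, difference of mean log2 0.96). Among immediate early genes, which dissociation can induce, 4 of 8 lay above 0 and Fosb was counted as lower, at 2.59 ± 3.01 against 11.0 ± 14.0 RPKM. Egr1, a zinc-finger factor of the same response, averaged 82.9 ± 74.0 and 183 ± 299 RPKM (log2 ratio -1.14, not counted). Of 15 stroma genes above the floor 8 lay above 0 (median 0.09, and -0.14 by the difference of mean log2), and Postn, a matrix protein, was counted as higher on the strength of 6 of 22 cells against 1 of 13. Foxd1, the stromal progenitor factor, was detected in 16 of 22 Cited1-detected and 6 of 13 Cited1-undetected cells (8.0 and 3.9 RPKM, ratio 0.88). In the matrix list Npnt, an integrin ligand, was also counted as lower, and without the bud-marker cells it was not.

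The ureteric bud list had the largest median, -4.16 over 7 genes, and none of its genes passed the floor without cells 47 and 57. Mal2 and Calb1, a calcium-binding protein of the bud, were counted as lower (ratios -7.55 and -6.22), and their ratios were 0.01 and -0.15 without those cells. The claudins Cldn4 and Cldn6 went from -4.48 and -3.29 to 0.02 and -0.62. These ratios rest on 2 cells.

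**Figure D3:**
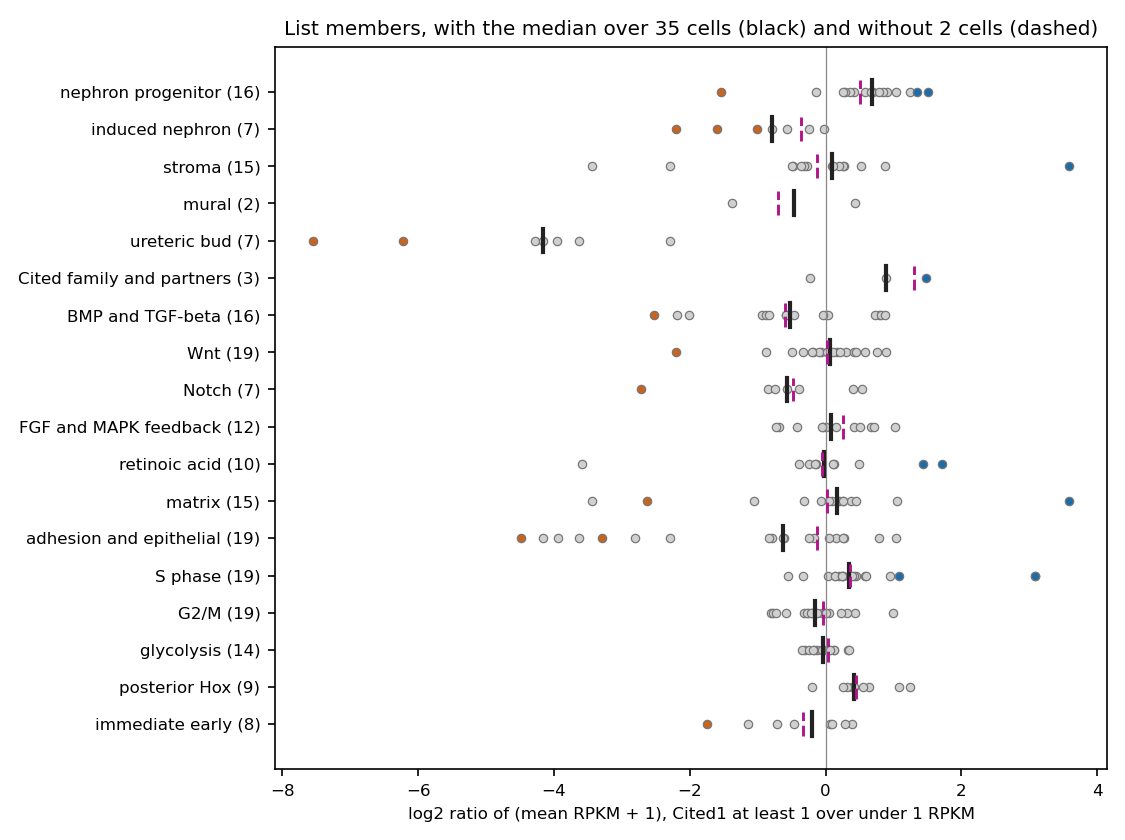
log2 ratio of (mean RPKM + 1), Cited1-detected over Cited1-undetected, for each list gene above the floor of 5 RPKM (number in brackets), blue where counted as higher, orange where lower and grey where not counted. Black bars are list medians over the 35 cells and dashed bars the medians without the 2 bud-marker cells, which leave the ureteric bud list with no gene.

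Over all genes, list members included, the counted genes that were detected in at least 50% of the higher side numbered 252 higher and 204 lower, and the 15 at each end were named. Ctsz (chr2:174252995-174264493, mm9), a lysosomal cysteine protease, was one of them. It was listed at 0 to 367 RPKM in Cited1-detected cells (median 64.6, detected in 21 of 22) and at 0 to 95.4 RPKM in the others (median 0, detected in 5 of 13). The means were 96.5 ± 101 and 10.4 ± 26.5 RPKM, a log2 ratio of 3.09. Gm16515 had the highest ratio, 4.49, with 15 of 22 against 1 of 13 cells. The remaining 11 that are not cyclins were 1110008P14Rik, Ccm2, Dpysl4, Tmem9b, Etv6, Tcf19, St8sia2, Rab40c, Pex16, Stard3 and Tmem159, with ratios from 2.54 to 3.41. They include Ccm2, a scaffold of the cerebral cavernous malformation complex, Etv6, an ETS-family repressor, St8sia2, which builds polysialic acid, and Stard3, a cholesterol carrier of late endosomes.

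At the lower end stood Heyl and Bmper together with Mageh1, Gtf2h4, 1110032A03Rik, Ece2, Arsk, Atp5s, Tmub1, Fam184a, G6pc3, Uros, Rab2b, Snf8 and Zfp33b, with ratios from -3.33 to -2.20. Snf8, a subunit of the ESCRT-II sorting complex, was detected in 9 of 22 and 11 of 13 cells, with medians of 0.0822 and 21.5 RPKM. G6pc3, a ubiquitous glucose-6-phosphatase, was detected in 8 and 11 cells, with medians of 0.265 and 11.1 RPKM. Gtf2h4, a subunit of the transcription and repair factor TFIIH, was detected in 4 and 7 cells. All of these genes but Bmper were listed at 0 in some cells of both sides, and Uros was no longer counted without the bud-marker cells.

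Within the Cited1-detected side, the 4 cells between 1 and 10 RPKM could be set beside the 18 with more. Osr1 averaged 6.48 RPKM in the 4 cells and 48.7 RPKM in the 18, and Crym 222 and 721 RPKM. Tmem100 ran the other way, at 32.9 and 5.53 RPKM. For these 3 genes the cells of low Cited1 lay nearer to the Cited1-undetected side, where the means were 13.8, 337 and 32.6 RPKM. Cited2 did not follow, at 32.4 and 35.9 RPKM, and Six2 stood at 53.4 and 45.8 RPKM. The 4 cells are few, and these genes were chosen after their values were seen.

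The same split could be made in cells that the choice did not use. Six2 was detected at 1 RPKM or more in 14 other cells of the study, 7 with Cited1 and 7 without, and 1 of those without (cell 18) also carried ureteric bud markers. Of the counted genes with a value there, 326 of 593 (55.0%) had a ratio of the same sign, against 3644 of 7351 (49.6%) of all genes above the floor. For genes higher with Cited1 the share was 54.5% and for lower genes 55.5%. A large minority of the counted genes thus had the opposite sign outside the 35 cells. Osr1 averaged 27.2 RPKM in the outside cells with Cited1 and 35.6 RPKM in those without (log2 ratio -0.38). By the other measures it did not reverse: its difference of mean log2 was 0.72, and it was detected in 7 of 7 and 5 of 7 cells. Other members of the progenitor list were divided. Cldn9 and Robo2 had ratios of -0.98 and -0.47, and both differences of mean log2 were also below 0. Sall1, Wt1, Meox1, Hoxa11 and Hoxd11 had ratios from -0.34 to -0.09. Gdnf, Meox2, Itga8 and Crym lay above 0 by both measures, with ratios of 2.78, 1.81, 0.33 and 0.32. Eya1 and Spock2 did so by the ratio alone, at 0.54 and 0.27. Cited2 averaged 12.7 and 23.4 RPKM (-0.84), and its difference of mean log2 was -0.94. Wnt4, Ccnd1, Bmper and Heyl had the opposite sign there by both measures, with ratios of 1.58, 1.57, 1.92 and 2.65. Wnt4 was detected in 1 of these cells and Heyl in 3, so their values rest on very few cells. Bmper was detected in 6 of 7 cells with Cited1 and 4 of 7 without, and Ccnd1 in 7 of 7 and 6 of 7. Ctsz and Ccne1 had ratios near 0, at 0.22 and 0.18, and differences of mean log2 of 0.52 and 0.79. Each was detected in 4 of 7 cells with Cited1 and 3 of 7 without. Of the 15 genes of highest ratio in the 35 cells, Ccm2, Tcf19, Pex16, Tmem9b, Rab40c, Stard3 and Etv6 reversed by both measures. Their outside ratios ran from -2.72 (Pex16) to -0.17 (Etv6). The others of the 15 lay above 0 by both measures. Pax8, not counted and slightly below 0 in the 35 cells, stood at 2.90 outside, with a difference of mean log2 of 1.74.

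Some genes kept their sign in the outside cells. Ccne2 had a log2 ratio of 1.36 and Mcm2 of 0.82, and their differences of mean log2 were 1.12 and 1.10. Ccne2 was detected in 3 of 7 cells with Cited1 and 1 of 7 without, and Mcm2 in 5 of 7 of each. Fosb stood at -1.32 and -1.31, and Tmem100 at -0.97 and -0.41. Fosb was detected in 1 of 7 and 4 of 7 cells and Tmem100 in 3 of 7 of each. The values of Ccne2, Fosb and Tmem100 thus also rest on few cells. For Gm16515 the values were 1.12 and 0.38, with detection in 4 of 7 cells with Cited1 and 5 of 7 without. Phf19 kept its sign by the ratio alone, at 0.96 against a difference of mean log2 of -0.01, with detection in 4 of 7 and 6 of 7 cells. Mal2, at -7.31, again followed a cell with bud markers. Six2 was lower in these cells than in the 35, averaging 11.3 and 18.6 RPKM, and they detected 27.8 to 83.3% of the stroma list, so the cells compared differ in these respects.

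**Figure D4:**
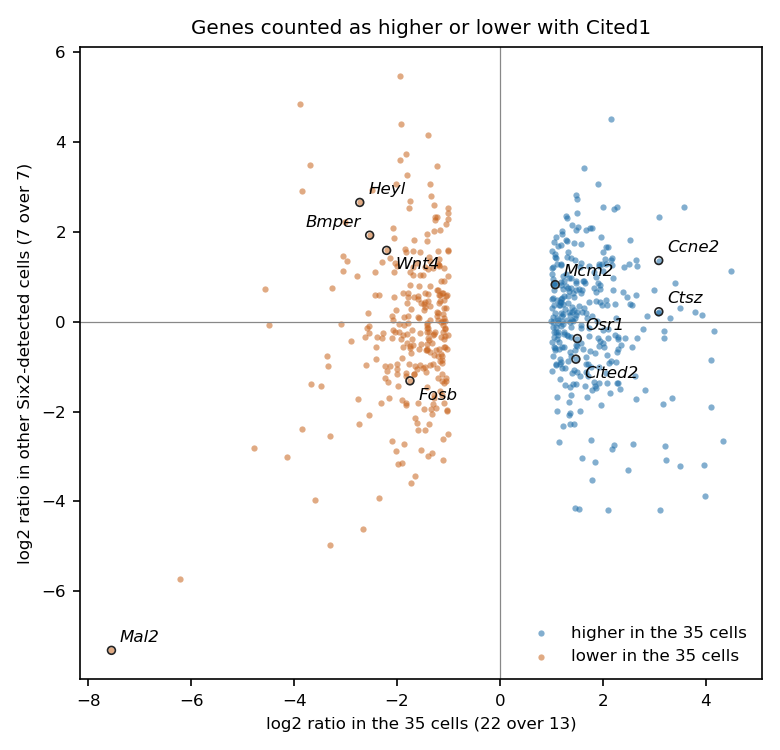
Each counted gene by its log2 ratio of (mean RPKM + 1) in the 35 cells (horizontal axis, 22 cells over 13) and in the other Six2-detected cells (vertical axis, 7 over 7), blue where higher and orange where lower in the 35 cells. Points spread above and below 0 on the vertical axis, with 326 of 593 on the side of the same sign; Ccne2 and Mcm2 lie on it, and Cited2, Heyl and Bmper do not. Osr1 is just below 0 by this ratio, while its difference of mean log2 was 0.72.

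The authors' second table lists 449 genes besides Cited1. Of these 153 were counted here, which is 34.1% of that table and 25.8% of the 594 counted genes. Both come from the same 35 cells, so the overlap is no independent support. The RPKM values of the second table differ from those of the first, with a median ratio of 1.33, and of the 16 named and counted genes that it holds, none changed direction with its values.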

How the data were processed

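Full-length cDNA of single cells from 1 pool of kidneys was sequenced on an Illumina HiSeq2500, per the labels' protocols. The authors deposited RPKM values, per the file headers, in a table of 12360 genes and 86 cells, which lists genes above 3 RPKM in at least 3 cells, and in a second table of 450 genes and 35 cells. The fold column of the second table was not used. TopHat 1.4.1, DESeq and mm9 are named, with no role, per the submitters' processing notes. Read depth is unknown, which limits precision at low RPKM, and whole-gene RPKM cannot tell strands apart.

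Values of the first table were compared between sides as described, with a pseudocount of 1 and a detection limit of 1 RPKM. Shares of cells have Clopper-Pearson 95% intervals. Members, gene lists and thresholds were chosen with earlier results of these data known. Genes named were the 15 highest and 15 lowest ratios among counted genes detected in at least 50% of the higher side, up to 4 members of each list (the 2 highest and 2 lowest with a side mean of at least 1 RPKM), every counted list gene and a fixed set of kidney regulators. Not all 120 named genes are printed. Alternatives were other pseudocounts, thresholds, scalings and sets of cells. Python 3.11.15, numpy 2.4.6, pandas 2.3.3 and scipy 1.17.1 were used, and the calculation was tested on simulated data.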

Additional observations from a re-analysis of the deposited data

How the results depend on the processing

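The counts of higher and lower genes depended on the rule and the cells. They were 311 and 283 as reported, 476 and 452 with a pseudocount of 0.1, 17 and 26 with a pseudocount of 10, 637 and 606 by the ratio of means alone, and 526 and 483 by the difference of mean log2 alone. Without the 9 cells with Wnt4 or Lhx1 they were 630 and 440, and over all 49 Six2-detected cells 152 and 156. In these runs the progenitor median was 0.38 and 0.30, and the induced nephron median -0.32 and -0.36. Without the 7 cells that held more stroma or ureteric bud than progenitor markers, 527 genes were higher. The induced nephron median was then 0.12 and the progenitor median 0.36. The ratios of Mal2, Cldn4 and Cldn6 were 0.079, 0.021 and 2.04. The choice of these 7 cells used Cited1, so it was not independent of the sides. Without the 2 bud-marker cells, an alternative chosen after seeing the data, Mal2 stood at 0.010 and Cldn4 at 0.018. Leaving out each cell in turn gave 298 to 371 higher and 273 to 320 lower genes, a progenitor median of 0.49 to 0.88 and an induced nephron median of -1.13 to -0.56. Of 47 counted genes among the 120 named, 33 kept their direction and moved by less than the spread between cells in every alternative run. For the counts and list medians, the cause of each change was not tested. No paired analysis was possible because all cells belong to 1 pool and no test was made.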
